A study of Mus musculus with 4 samples.

Results

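The immune cells compared here were the CD45-positive barcodes of 2 single-cell RNA libraries from MC38 tumors, one whose tumor cells carried RAC1 A159V and one with wild-type (WT) RAC1, both from mice given an IgG control antibody. A barcode is the sequence tag of 1 droplet, and it was kept when it held more than 500 genes, at least 2 unique molecular identifiers (UMIs, each counting 1 captured RNA molecule) of Ptprc, the gene for CD45, and no UMI of Hmga2, which marked the tumor cells. This gave 3111 immune barcodes from the A159V IgG library and 3738 from the WT IgG library, 6849 of the 33228 barcodes in all 4 libraries of the series and of the 16487 in the IgG libraries. T cells were then taken as barcodes with at least 2 UMIs of Cd3d, Cd3e and Cd3g together, natural killer (NK) cells as those with at least 2 UMIs of Ncr1 and Klrb1c and none of the Cd3 genes, and myeloid cells as those with at least 3 UMIs of Lyz2. The other pair of libraries, A159V and WT tumors from mice treated with an antibody against PD1 (aPD1), is used below as a side reading of the same genotypes under another treatment.

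MC38 is a colon adenocarcinoma line of C57BL/6 mice, and RAC1 is a small GTPase that controls the cytoskeleton and growth signaling. The A159V allele was introduced into the endogenous Rac1 gene of the line by CRISPR-Cas9 and was carried in the homozygous state by the descendants of a single edited clone, while the immune cells came from unedited hosts. The A159V substitution itself cannot be read from 3′ counts. Bead-separated CD45+ and CD45− cells were pooled again in a fixed proportion for loading, so the share of immune barcodes in a library follows the mixing. The hosts were C57BL/6 mice bought at an age of 6 to 8 weeks, and the number of mice behind each library was not given in the sources used here. With 1 library on each side there is no test of the genotype: clone, mouse, tumor and library cannot be told apart, no value below has a replicate check, and every interval, given in square brackets after its value, is a 95% interval for counting error only. UMIs of 1 barcode also come from 1 cell, so a few deep barcodes can carry a gene, which the intervals do not cover.

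T cells recognize peptides on major histocompatibility complex (MHC) molecules through the T cell receptor and its CD3 chains, and answer with cytokines such as interferon gamma (IFN-γ) or with killing. NK cells kill without a rearranged receptor, from granules that hold perforin and granzymes, and balance activating against inhibitory receptors. Monocytes enter tumors from blood and become macrophages, which display peptides to CD4 T cells on MHC class II when IFN-γ or other signals switch on the class II genes, and which draw T cells in with the IFN-γ-induced chemokines Cxcl9 and Cxcl10.

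The promoters of the genes on which the results turn are shown here, 140 bases before the RefSeq start on build GRCm38.p6. MHC class II promoters are known for an inverted CCAAT element, so CCAAT was searched on both strands, with no overlap between matches, and its letters are in capitals (ATTGG is the same motif on the other strand). H2-Aa (chr17:34287824-34287963, minus strand) held 1 match and H2-Eb1 (chr17:34305727-34305866, plus strand) held 2. The same letters were found in 11120 of 32851 promoters (33.8%) within 250 bases of the start, so a match describes the window and does not mark a site.
H2-Aa: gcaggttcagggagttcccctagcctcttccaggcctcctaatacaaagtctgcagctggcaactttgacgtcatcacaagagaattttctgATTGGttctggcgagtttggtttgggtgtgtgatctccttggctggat
H2-Eb1: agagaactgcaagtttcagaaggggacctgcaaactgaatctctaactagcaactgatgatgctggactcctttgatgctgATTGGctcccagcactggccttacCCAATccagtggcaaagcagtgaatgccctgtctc

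The granzyme genes Gzmd, Gzme, Gzmf and Gzmg, all more than 2-fold higher in A159V NK cells, lie in a cluster on the minus strand of chromosome 14. They have closely related promoters, which are shown to let the reader see how alike they are. Capitals mark the longest stretch that the 4 have in common, 36 bases long and found in 4 of the 32851 promoters. The windows are chr14:56132594-56132733 for Gzmd, chr14:56120626-56120765 for Gzme, chr14:56211408-56211547 for Gzmf and chr14:56159580-56159719 for Gzmg. In pairwise alignments 119 to 139 of the 140 bases were paired, since the windows are offset against each other, and between 92.5% and 97.6% of the paired bases were identical.
Gzmd: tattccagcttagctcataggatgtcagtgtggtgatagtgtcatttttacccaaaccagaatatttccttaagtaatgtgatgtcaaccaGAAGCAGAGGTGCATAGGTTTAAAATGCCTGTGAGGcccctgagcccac
Gzme: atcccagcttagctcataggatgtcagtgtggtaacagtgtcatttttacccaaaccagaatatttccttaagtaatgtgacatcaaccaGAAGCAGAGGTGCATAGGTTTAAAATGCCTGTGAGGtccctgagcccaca
Gzmf: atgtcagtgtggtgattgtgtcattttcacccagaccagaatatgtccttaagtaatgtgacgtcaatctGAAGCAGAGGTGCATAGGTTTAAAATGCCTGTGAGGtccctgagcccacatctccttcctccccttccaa
Gzmg: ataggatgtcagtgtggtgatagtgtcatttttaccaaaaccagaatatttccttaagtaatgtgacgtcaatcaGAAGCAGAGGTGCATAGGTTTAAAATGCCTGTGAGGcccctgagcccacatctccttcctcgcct

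The A159V IgG library held 8685 barcodes with 113779013 UMIs and the WT IgG library 7802 barcodes with 93030164 UMIs. Immune barcodes made up 38.3% and 51.3% of the barcodes with more than 500 genes. They were shallower in A159V, with a median of 2435 UMIs against 3566.5, and had similar mitochondrial shares (medians, 1.95% and 2.21%). NK barcodes alone were deeper in A159V, with a median of 5495 UMIs against 4904. The 2 libraries had 13 barcode sequences in common, against 13 to 22 for all pairs of libraries of the series. Of the immune barcodes, 44.7% in A159V and 38.1% in WT passed none of the 3 gates, and these had medians of 1866 and 2766 UMIs. More than 1 gate was passed by 49 and 54 barcodes, which were counted in each of their lineages. At the edge of the CD45 gate, 767 A159V and 623 WT barcodes held exactly 2 Ptprc UMIs, while 952 and 734 held 1 and stayed outside.

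Between the IgG libraries, NK cells formed a larger share of the immune barcodes of the A159V tumor, and T cells a smaller one. NK cells numbered 249 in A159V (8.0% [7.07 to 9.01]) and 149 in WT (3.99% [3.38 to 4.66]), a 2.01-fold higher share [1.65 to 2.45]. T cells numbered 548 (17.6% [16.3 to 19.0]) and 851 (22.8% [21.4 to 24.1]), which gave a ratio of A159V to WT of 0.774 [0.703 to 0.852]. Both differences exceeded counting error, and the intervals of the shares were exact binomial ones. Among T cells, the share with Cd8a or Cd8b1 and no Cd4 was 36.7% in A159V and 43.1% in WT, and the share with Cd4 and neither Cd8 gene was 11.3% and 16.7% (ratio, 0.678 [0.513 to 0.896]). The remaining T barcodes held no UMI of these genes or UMIs of both kinds, so the shares depend on depth. Between the aPD1 libraries the NK order was the opposite, with 4.75% [4.16 to 5.40] in A159V and 9.15% [8.22 to 10.2] in WT, while T cells were again fewer in A159V, at 18.6% against 31.3%.

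Myeloid cells, with 972 barcodes in A159V (31.2% [29.6 to 32.9]) and 1366 in WT (36.5% [35.0 to 38.1]), had a ratio of 0.855 [0.799 to 0.914], but this ratio moved with depth. When each barcode was thinned at random to 1500 UMIs before the gates were applied, the myeloid shares were 27.8% and 26.7%, a difference within counting error (ratio, 1.04 [0.957 to 1.14]). The T cell ratio stayed at 0.811 and the NK ratio at 1.68. Between the aPD1 libraries the myeloid share was the higher one in A159V, at 36.6% against 24.5% in WT. Among myeloid barcodes, macrophages with at least 5 UMIs of C1qa, C1qb and C1qc made up 17.8% in A159V and 22.1% in WT. Monocytes, with at least 2 UMIs of Ly6c2 and at most 1 of the C1q genes, made up 54.2% and 53.7%, a difference within counting error (ratio, 1.01 [0.935 to 1.09]). Fewer cells of a type and less RNA per cell both lower a gated share, and they cannot be told apart here.

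**Figure D1:**
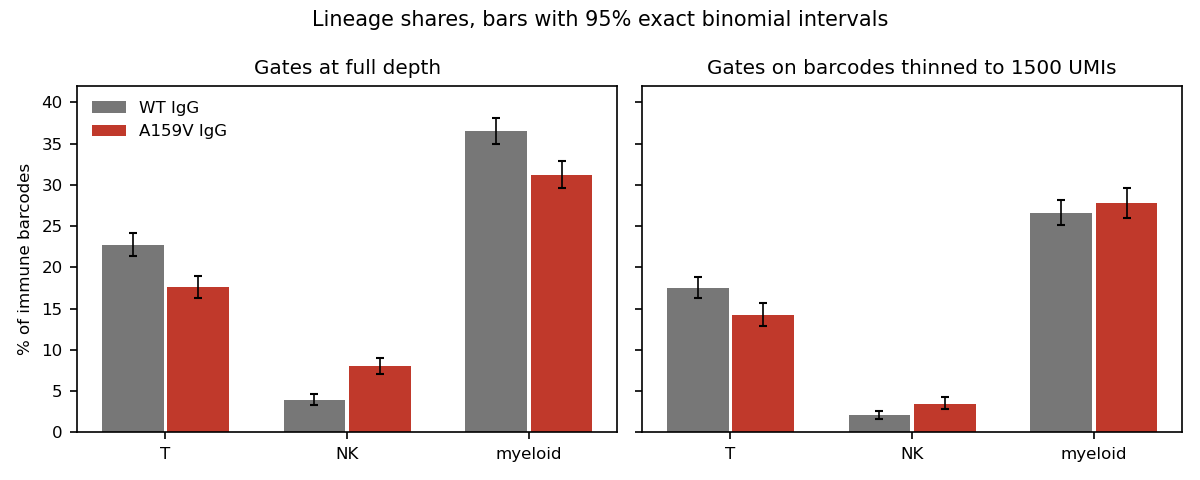
Share of immune barcodes (y axis, %) in each lineage (x axis) for WT IgG (gray) and A159V IgG (red), with 95% exact binomial intervals, at full depth on the left and with barcodes thinned to 1500 UMIs before gating on the right. NK cells were 8.0% against 3.99% at full depth and 3.49% against 2.09% after thinning, while the myeloid shares differed by no more than counting error after thinning.

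For the comparison of profiles, the UMIs of all barcodes of a lineage were summed in each library and scaled to a total of 1000000 (counts per 1000000 UMIs, CPM). T cells were summed from 2158110 UMIs in A159V and 4300330 in WT, NK cells from 1572723 and 890226, and myeloid cells from 3634044 and 7374615. A gene entered the comparison when it reached 50 CPM in 1 of the IgG libraries, and a gene was counted as past the fold when its levels differed at least 2-fold. At 1.5-fold the counts were 325 in T cells (8.04%, with 5.27% higher and 2.77% lower), 512 in NK cells (13.9%, with 4.96% higher and 8.92% lower) and 166 in myeloid cells (4.53%, with 2.02% higher and 2.51% lower). At 2-fold the myeloid profiles were the closest, with 48 of 3666 genes past the fold (1.31%), 28 higher (0.764%) and 20 lower (0.546%) in A159V. T cells had 68 of 4044 genes (1.68%), 57 higher (1.41%) and 11 lower (0.272%). NK cells, with the fewest UMIs, had 117 of 3687 genes (3.17%), 38 higher (1.03%) and 79 lower (2.14%). The median log2 ratio of all compared genes was −0.02 in T cells, −0.07 in NK cells and 0.01 in myeloid cells, so the profiles were centered close to equal levels.

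**Figure D2:**
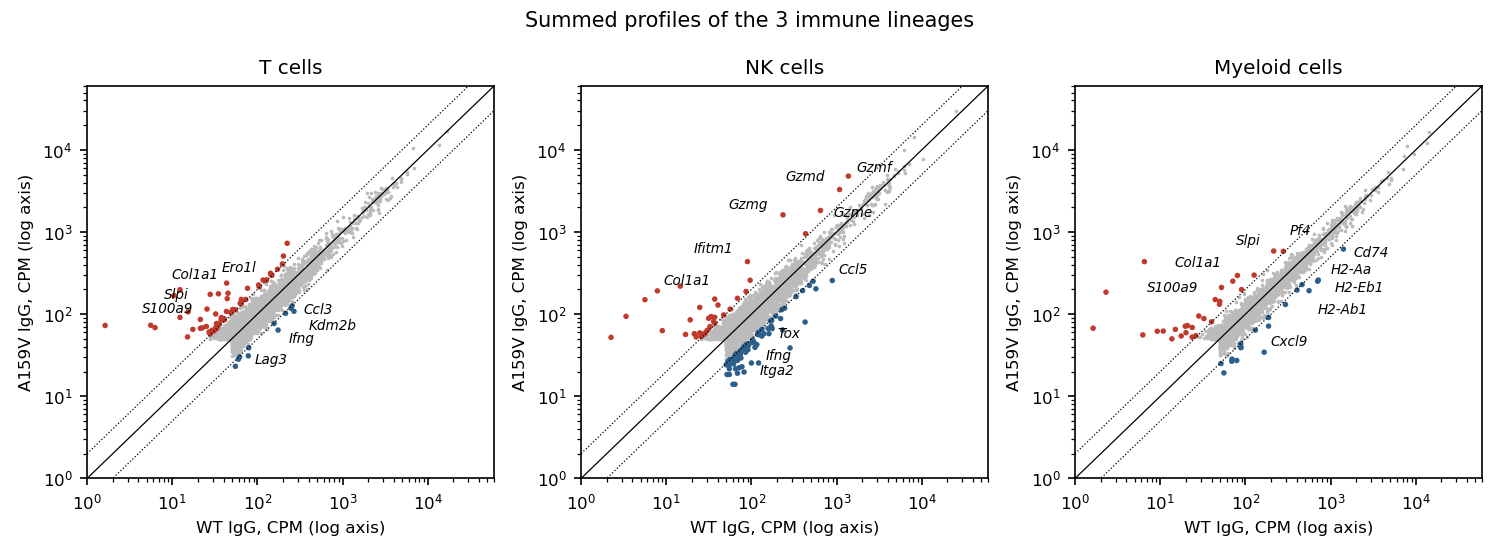
Level of each compared gene in WT IgG (x axis, CPM, log axis) against A159V IgG (y axis, CPM, log axis) for T, NK and myeloid cells, with genes past 2-fold in red (higher in A159V) or blue (lower), the solid line at equal levels and dotted lines at 2-fold. The 4 class II genes Cd74, H2-Aa, H2-Eb1 and H2-Ab1 lie below the line in myeloid cells, and Gzmd to Gzmg lie above it in NK cells.

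Some of the genes past the fold are known from other cell types than the 3 lineages. The summed level of 7 fibroblast markers, all of which were detected in these profiles apart from 1 in WT NK cells, was 794 CPM in A159V T cells against 122 in WT, 684 against 44.9 in NK cells and 1102 against 429 in myeloid cells. These sums lean on a few barcodes. For Col1a1, 1 of these markers, the top A159V barcode held 53.7% of the UMIs in T cells, 82.5% in NK cells and 33.7% in myeloid cells. In WT the shares were 28.3%, 28.6% and 44.3%. The summed level of 7 neutrophil markers was 179 against 30.7 CPM in T cells and 540 against 206 in myeloid cells. Of 8 markers of the tumor line, 2 to 5 were detected in a profile, and their sum was 292 against 93.2 CPM in T cells, 94.7 against 39.3 in NK cells and 270 against 169 in myeloid cells, beside 1753 and 1339 CPM in tumor barcodes. Markers of B cells stayed under 41 CPM in the 3 lineages, and the Cd3 genes were at 0 in NK cells by the gate. When barcodes with UMIs of another cell type's markers were left out (103 of 548 A159V and 126 of 851 WT T cells, 24 of 249 and 15 of 149 NK cells, 106 of 972 and 141 of 1366 myeloid cells), the genes past the fold numbered 36 in T cells, 88 in NK cells and 23 in myeloid cells. This set of barcodes, called the marker-clean set below, is given beside the results it touches. It was made with UMIs of Col1a1, Col1a2, Col3a1, Dcn and Sparc in each lineage, of class II, S100a8 and S100a9 and other myeloid genes in T and NK cells, and of granzymes in myeloid cells, so the ratios of these genes in it are set in part by the filter. The part of foreign RNA in genes that were also higher in tumor barcodes was not tested.

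Myeloid cells of the A159V tumor held less RNA for antigen presentation on MHC class II. The 2 chains of the classical I-A molecule, H2-Aa and H2-Ab1, the chain of I-E encoded by H2-Eb1, and Cd74, the invariant chain that guides class II through the cell, were each more than 2-fold lower. In WT IgG H2-Aa stood at 718 CPM [699 to 737, from the Poisson distribution] and in A159V IgG at 260 CPM [244 to 277], a log2 ratio of −1.46 [−1.57 to −1.36], or 2.76-fold lower. H2-Ab1 was at 559 and 193 CPM (log2 ratio, −1.54 [−1.65 to −1.42]). H2-Eb1 was at 704 and 252 CPM (−1.48 [−1.59 to −1.38]), and Cd74 at 1415 and 620 CPM (−1.19 [−1.26 to −1.12]). The 3 H2 genes are protein coding and neighbor each other on chromosome 17 of GRCm38, H2-Ab1 (ENSMUSG00000073421) at chr17:34257689-34269419, H2-Aa (ENSMUSG00000036594) at chr17:34282744-34287823 and H2-Eb1 (ENSMUSG00000060586) at chr17:34305867-34316674, whereas Cd74 lies on another chromosome.

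The helpers of class II loading were lower by less. H2-DMa and H2-DMb1, the chains of the molecule that exchanges peptides on class II, were at 154 against 91.4 CPM and at 91.9 against 49.8 CPM (log2 ratios, −0.76 and −0.88). Ctss, the protease that trims the invariant chain, was at 2012 and 1758 CPM (−0.19 [−0.24 to −0.15]). Ciita, the master regulator of class II transcription, was under the 50 CPM minimum, at 21.6 CPM in WT and 9.91 CPM in A159V (−1.12 [−1.69 to −0.59]). Of the 10 genes of the class II list, 7 reached the minimum, all 7 were lower in A159V and 4 were past the fold, with a median log2 ratio of −1.19 against 0.01 for all compared genes. Over the alternative settings the median stayed between −1.19 and −0.74.

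The class II difference was seen in both kinds of myeloid cells and was wider in C1q macrophages. In these macrophages H2-Aa was at 1158 CPM in WT and 258 CPM in A159V (log2 ratio, −2.17), H2-Eb1 at 1169 and 240 CPM (−2.28), and Cd74 at 2036 and 607 CPM (−1.74). In Ly6c2 monocytes H2-Aa was at 425 and 218 CPM (−0.97), H2-Eb1 at 415 and 223 CPM (−0.89), and Cd74 at 982 and 586 CPM (−0.75). A WT macrophage profile thus carried over 2 times the class II RNA of a WT monocyte profile, while the A159V macrophage and monocyte profiles were close to each other. The difference between the macrophage and monocyte ratios was not tested.

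The class II genes were spread over many barcodes. After thinning to 1000 UMIs, H2-Aa was found in 24.1% of WT and 10.1% of A159V myeloid barcodes (36.9% and 16.9% before thinning), and Cd74 in 43.2% and 28.3%. Tumor barcodes, which gave the background and had median depths of 38612.5 and 35604 UMIs, held an H2-Aa UMI in 1.61% and 0.163% of cases when thinned in the same way, under the myeloid shares. The sign was the same between the aPD1 libraries, where H2-Aa was at 2398 CPM in WT and 1114 CPM in A159V (log2 ratio, −1.11) and Cd74 at 4561 and 1869 CPM (−1.29). The myeloid makeup differed there too, with C1q macrophages at 59.1% of myeloid barcodes in WT and 20.7% in A159V. Ly6c2 monocytes made up 10.9% and 49.2%. The part of this makeup in the aPD1 class II values was not tested. Summed dendritic cell markers were at 70.2 CPM in WT IgG and 54.2 CPM in A159V IgG myeloid cells, and B cell markers at 24.5 and 40.5 CPM. The part of these cells in the class II values was not tested.

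Among chemokines, Cxcl9 set itself apart. Cxcl9 (chr5:92321347-92328079, minus strand), which attracts T and NK cells through the receptor Cxcr3, was at 166 CPM in WT IgG [157 to 176] and 34.4 CPM in A159V IgG [28.6 to 41.0], a log2 ratio of −2.27 [−2.55 to −2.0], or 4.83-fold lower. It was found in 209 WT and 37 A159V barcodes, and after thinning in 7.68% and 1.36%, the latter close to the 1.06% of A159V tumor barcodes. Cxcl10, which binds the same receptor, was at 2290 and 2407 CPM (0.07 [0.03 to 0.11]). Between the aPD1 libraries Cxcl9 was at 155 CPM in WT and 150 CPM in A159V (−0.05), so the IgG difference had no counterpart there. Of the 16 measured genes of the myeloid chemokine list, 1 was past the fold downward (Cxcl9) and 1 upward, the platelet factor Pf4, with a list median of 0.04.

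Other IFN-γ response genes leaned lower, by less. Of 18 at the minimum, 15 were below 0, 1 was past the fold (Cxcl9), and the median was −0.19. The immune GTPases Gbp2 and Iigp1 were at 396 against 228 CPM (−0.80) and at 160 against 89.4 CPM (−0.84), and the transcription factor Irf1 at 319 against 214 CPM (−0.58). Cd274, the gene for PD-L1, was at 537 and 594 CPM (0.14), and Gbp5 at 163 and 211 CPM (0.38), both higher in A159V. Gbp2 and Irf1 were higher in A159V between the aPD1 libraries (0.58 and 0.25). Type I interferon-stimulated genes had a median of 0.14, with 21 of 30 above 0 and none of the 30 past the fold, and MHC class I genes a median of −0.15, with 13 of 15 below 0 and none of the 15 past the fold.

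Genes of T cell costimulation differed among themselves. Cd86 was at 767 CPM in WT and 498 CPM in A159V (−0.62 [−0.70 to −0.55]) and Cd40, the receptor for T cell help, at 99.8 and 57.5 CPM (−0.80), whereas Cd80, the partner of Cd86, was at 105 CPM in both (0.00 [−0.18 to 0.18]). None of these 3 was past the fold, and Cd86 was higher in A159V between the aPD1 libraries (0.91). The lists of M1- and M2-associated genes, which describe inflammatory and repair-type macrophages, were near the center, with medians of −0.05 over 11 genes and 0.03 over 9 genes. The complement genes C1qa, C1qb and C1qc, which mark resident-type macrophages, were lower by 0.53 to 0.64 on the log2 scale, beside the smaller share of C1q macrophages. Monocyte genes had a median of 0.09 over 12 genes, with Vcan, a matrix proteoglycan, at 343 and 546 CPM (0.67), Chil3, a chitinase-like protein, at 359 and 502 CPM (0.48), and Ly6c2 at 1481 and 1317 CPM (−0.17), against a ratio of 2.54 between the aPD1 libraries. Ly6c2 monocytes made up 49.2% of the A159V aPD1 and 10.9% of the WT aPD1 myeloid barcodes.

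Several secreted and protease genes were higher in A159V myeloid cells. Slpi, an inhibitor of neutrophil elastase, was at 215 CPM in WT and 587 CPM in A159V (1.45 [1.36 to 1.54]). It was also higher in A159V tumor barcodes, at 579 against 172 CPM, and lay above the 2-fold line in the marker-clean set as well (1.38). Pf4, a chemokine of platelets and of some macrophages, was at 279 and 583 CPM (1.06 [0.98 to 1.15]), but between the aPD1 libraries it was lower in A159V (−1.17). In C1q macrophages it was at 739 CPM in WT and 2147 CPM in A159V, and in monocytes at 29.4 and 26.8 CPM. The metalloproteases Mmp12 and Mmp13 were at 161 against 309 CPM (0.94) and at a log2 ratio of 1.01 with 80.6 CPM in A159V, but between the aPD1 libraries both were lower in A159V (−3.64, with 2996 CPM in WT and 240 CPM in A159V, and −1.17). Plau, the urokinase protease, went the other way, with 43.5 CPM in A159V (−1.02 [−1.28 to −0.76]). In the aPD1 libraries C1q macrophages made up 20.7% of the A159V and 59.1% of the WT myeloid barcodes. The part of this makeup in the aPD1 ratios of Pf4, Mmp12 and Mmp13 was not tested.

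Of the 7 genes with the highest ratios under the naming rule, Mfap5, Postn, Col1a1 and Col1a2 are matrix genes of fibroblasts, S100a9 and G0s2 are high in neutrophils, and Retnla is a gene of alternatively activated macrophages. Mfap5 (6.24 and 55.9 CPM, log2 ratio 3.16) and Postn (10.8 and 62.2 CPM, 2.52) were held by 26 and 24 and by 17 and 6 barcodes, and the ratio of Postn was −2.81 in the marker-clean set. Col1a1 was at 80.5 CPM in WT and 296 CPM in A159V (1.88), found in 72 and 42 barcodes, with a ratio of 0.29 in the marker-clean set. S100a9, a subunit of calprotectin, was at 52.3 and 211 CPM (2.01 [1.84 to 2.19]), in 21 WT and 41 A159V barcodes. Its ratio was 1.99 in the marker-clean set, whose filter uses no neutrophil gene in myeloid cells and so cannot take neutrophils out. With the lineage gates on thinned barcodes it was 2.07, with the Ptprc gate thinned too 0.45, and between the aPD1 libraries 0.42. Retnla, at 13.7 and 50.1 CPM (1.87), came from 11 and 5 barcodes. Of the 7 lowest, besides Cxcl9 and the H2 genes, Tnip3, an inhibitor of NF-κB signaling, was at 69.2 and 26.7 CPM (−1.37 [−1.70 to −1.06]). Cntn3 (79.1 and 27.2 CPM) and Brinp3 (187 and 71.6 CPM) were both higher in tumor barcodes than in myeloid ones, at 334 and 604 CPM in the WT tumor barcodes. Without the deepest 5% of barcodes their log2 ratios were only −0.19 and −0.21.

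Immediate early genes, which respond fast to stimulation and also to tissue dissociation, leaned low in A159V myeloid cells, with 13 of 16 below 0, 2 past the fold and a median of −0.30. Fosb was at 296 and 131 CPM (−1.17) and Klf4, a factor of monocyte differentiation, at 187 and 91.4 CPM (−1.04). Both were lower in A159V tumor barcodes too, at 97.9 against 311 CPM and at 25.3 against 103 CPM. The transforming growth factor beta (TGF-β) list had a median of −0.46, with 6 of 9 below 0. Granzyme genes were also counted in myeloid barcodes, among them Gzmc at 6.51 CPM in WT and 436 CPM in A159V. The median of the 7 cytotoxic genes was 2.75 with all barcodes and 0.06 without the deepest 5% of barcodes. Summed NK markers stood at 130 CPM in WT and 269 CPM in A159V myeloid cells.

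**Figure D3:**
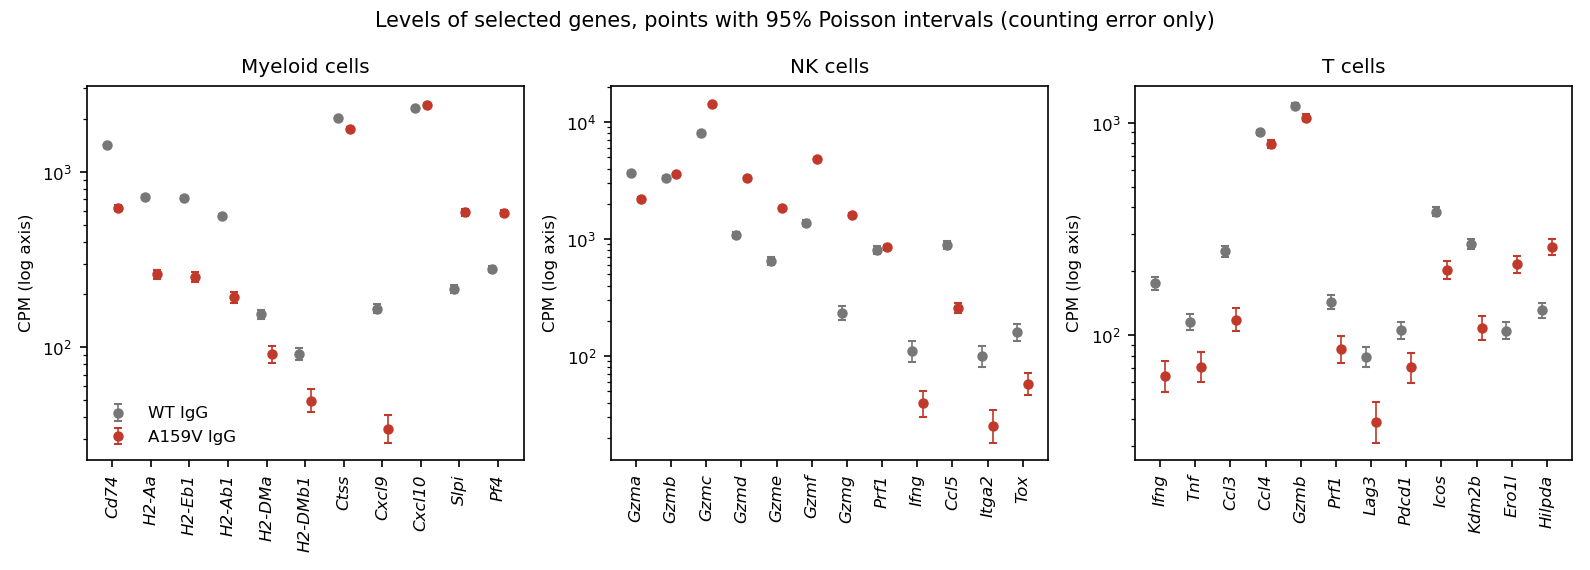
Level (y axis, CPM, log axis) of selected genes (x axis) in myeloid, NK and T cells of WT IgG (gray) and A159V IgG (red), with 95% exact Poisson intervals for counting error. In myeloid cells the intervals of Cd74, H2-Aa, H2-Eb1, H2-Ab1 and Cxcl9 lie apart, with A159V lower, and in NK cells those of Gzmd to Gzmg lie apart, with A159V higher.

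NK cells of the A159V tumor carried more RNA of a cluster of granzymes and less of cytokines and chemokines. Granzymes are serine proteases that enter target cells through pores made by perforin. Gzmd was at 1085 CPM in WT IgG and 3293 CPM in A159V IgG (1.60 [1.5 to 1.70]) and Gzme at 647 and 1830 CPM (1.5 [1.37 to 1.63]). Gzmf was at 1374 and 4798 CPM (1.80 [1.72 to 1.89]) and Gzmg at 235 and 1618 CPM (2.79 [2.58 to 3.0]). Their neighbor Gzmc was at 8128 and 14357 CPM (0.82 [0.78 to 0.86]), under 2-fold. The genes of the cluster lie at chr14:56117626-56120625 (Gzme), chr14:56129556-56132608 (Gzmd), chr14:56156582-56159579 (Gzmg) and chr14:56205263-56211417 (Gzmf) on the minus strand.

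The genes known best for NK killing differed less between the IgG libraries. Gzmb was at 3305 CPM in WT and 3604 CPM in A159V (0.13 [0.06 to 0.19]), and Prf1, the gene for perforin, at 803 and 851 CPM (0.08 [−0.05 to 0.22]), within counting error. Gzma was lower, at 3682 and 2195 CPM (−0.75 [−0.82 to −0.68]). Between the aPD1 libraries Gzmb, Prf1 and Gzmc were each more than 2-fold higher in A159V (2.09, 1.20 and 3.68), while Gzma was at −0.12. Gzmd, Gzme, Gzmf and Gzmg were at 3.10, 3.62, 3.31 and 2.84 there. Gzma, Gzmb and Prf1 thus had lower ratios than the cluster there too, whereas Gzmc did not. Of the 13 cytotoxic genes at the minimum, 4 were past the fold, all higher and all in the Gzmd to Gzmg cluster, and the list median was 0.08 against −0.07 for all compared genes.

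Because Gzmd to Gzmg are close relatives, reads could be shared among them. Of the 411 windows of 90 bases at the 3′ end of their transcripts, 7 windows (1.70%) were identical between Gzmd and Gzme, and 0 were for the other pairs, and their sum is given as well. Summed, Gzmd to Gzmg stood at 3341 CPM in WT and 11539 CPM in A159V (1.79 [1.73 to 1.84]), or 3.45-fold higher. A UMI of these 4 genes was held by 44 of 149 WT NK barcodes (29.5%) and by 152 of 249 A159V barcodes (61.0%). In WT the 10 barcodes richest in these UMIs held 79.3% of them, against 39.5% in A159V, so the WT level rested on a few cells. Without the deepest 5% of barcodes the sum was at 1816 and 10608 CPM (2.55).

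The order of the sum was also found in single genes and between the aPD1 libraries. After thinning to 1000 UMIs, Gzmd was found in 22.3% of WT and 45.5% of A159V NK barcodes and Gzmf in 6.08% and 22.8%, against 0 of 746 WT tumor barcodes for Gzmd, which allows up to 0.402%, and 0.163% of A159V tumor barcodes. In the aPD1 libraries the sum was 708 CPM in WT, where 18 of 321 NK barcodes held a UMI, and 6564 CPM in A159V, where 76 of 223 did. The WT aPD1 level was nearly all in 10 barcodes, which held 98.2% of the UMIs. Ordered by the sum, the 4 libraries ran A159V IgG, A159V aPD1, WT IgG and WT aPD1.

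Cytokines and chemokines of lymphocytes went the other way in NK cells. Of 7 at the minimum, 6 were below 0 and 5 were past the fold, all lower in A159V, with a median of −1.48. Ifng, the gene for IFN-γ (chr10:118441046-118445892), was at 110 CPM in WT and 39.4 CPM in A159V (−1.48 [−1.96 to −1.01]), found in 37 of 149 and 36 of 249 barcodes. Ccl5, a chemokine that recruits T cells and dendritic cells, was at 891 and 257 CPM (−1.79 [−1.97 to −1.62]). Tnf was at 82.0 and 19.7 CPM (−2.06 [−2.71 to −1.43]), but at −0.86 in the marker-clean set, and 1 barcode held 38.4% of its WT UMIs. Xcl1, which attracts cross-presenting dendritic cells, was at 1062 and 678 CPM (−0.65), although between the aPD1 libraries it was higher in A159V, at 580 against 148 CPM (1.97). Ccl3 and Ccl4, at 116 against 42.6 CPM (−1.44) and 572 against 204 CPM (−1.49), changed direction when the gates were applied to barcodes thinned to 1500 UMIs (0.84 and 0.54), whereas Ifng and Ccl5 were lower there as well (−2.02 and −1.64).

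NK surface molecules and regulators were mostly lower. Of 22 NK receptor genes, 18 were below 0 and 3 were past the fold, with a median of −0.33. Itga2, the integrin chain that marks conventional NK cells as CD49b, was at 100 CPM in WT and 25.4 CPM in A159V (−1.97 [−2.55 to −1.42]), while Itga1, which marks tissue-resident innate lymphocytes as CD49a, was at 109 and 188 CPM (0.78 [0.45 to 1.13]), a difference that turned to −0.12 with the Ptprc and lineage gates on thinned barcodes. Eomes, a T-box factor of conventional NK cells, was at 140 and 139 CPM (−0.01 [−0.34 to 0.32]) and its relative Tbx21 at 199 and 133 CPM (−0.57). Tox, a factor needed for NK development, was at 161 and 57.9 CPM (−1.47 [−1.87 to −1.08]). Cd226, an activating receptor, was at 61.8 and 24.8 CPM (−1.32), and the Ly49 receptors Klra4 and Klra9 at 480 against 224 CPM (−1.10) and 133 against 64.9 CPM (−1.03). Ly49 genes are a family of close paralogs, so the split of reads among them is uncertain.

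Other genes past the fold included membrane and survival genes. Ifitm1, an interferon-induced membrane protein, was at 89.9 CPM in WT and 436 CPM in A159V (2.28 [1.94 to 2.63]), and Ifitm2 at 433 and 953 CPM (1.14). The tumor necrosis factor family ligands Tnfsf4 (OX40 ligand) and Tnfsf11 (RANKL) were at 31.5 against 89.0 CPM (1.5) and at 25.8 against 57.2 CPM (1.15). Pim2, a survival kinase, was at 68.5 and 19.1 CPM (−1.84), the integrin Itgax at 51.7 and 18.4 CPM (−1.49), and Rhob, a small GTPase, at 65.2 and 21.6 CPM (−1.59). The signs of Itga2, Tox, Pim2, Itgax, Ifitm1 and Tnfsf11 were the same between the aPD1 libraries (−1.59, −1.44, −1.89, −1.30, 4.12 and 3.08). Of the 117 NK genes past the fold in the IgG pair, 94 (80.3%) had the same sign in the aPD1 pair, against 72.0% of all compared NK genes. The same count was 39 of 68 in T cells (57.4%, against 68.1% of all compared genes) and 32 of 48 in myeloid cells (66.7%, against 61.5%).

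Cell cycle and lipid genes leaned high in A159V NK cells. Of 14 cell cycle genes, 12 were above 0 and 1 was past the fold, with a median of 0.51. Top2a, a topoisomerase of dividing cells, was at 149 and 237 CPM (0.67 [0.38 to 0.96]) and Ube2c, a mitotic ubiquitin ligase partner, at 37.1 and 153 CPM (2.04). Of 5 cholesterol genes at the minimum, 4 were above 0 and 2 were past the fold, Hmgcs1 (24.7 and 59.1 CPM, log2 ratio 1.26) and Fdps (29.2 and 60.4 CPM, 1.05), both enzymes of the mevalonate pathway. The TGF-β list was low, with a median of −0.72 and 6 of 7 below 0, including its mediator Smad3 at 77.5 and 36.2 CPM (−1.10) and the feedback inhibitor Smad7 at 173 and 104 CPM (−0.74). Of 15 immediate early genes, 12 were below 0 and 4 were past the fold, all lower. Their median was −0.32 against −0.07 for all compared genes, and −0.11 in the marker-clean set. Among the lower ones, Fos and Dusp1 were at 175 against 66.8 CPM (−1.39) and 284 against 38.8 CPM (−2.87).

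Of the 7 genes with the highest NK ratios, 5 were matrix genes, Sparc, Col1a2, Col1a1, Fstl1 and Col3a1. Col1a1 was at 7.86 CPM in WT and 192 CPM in A159V (4.61 [3.55 to 5.94]), from 6 and 12 barcodes, and its ratio was 0.63 in the marker-clean set. Sparc, with 3.37 and 94.1 CPM (4.80 [3.23 to 7.10]), was found in 2 and 7 barcodes, and Fstl1, with 2.25 and 52.1 CPM, had a wide interval (4.54 [2.64 to 7.61]). The MHC class II list had a median of 1.67 in NK cells and −0.20 in the marker-clean set, with H2-Eb1 (24.7 and 121 CPM, log2 ratio 2.29) held by 9 and 12 barcodes. The chemokine Cxcl2, at 427 and 80.1 CPM (−2.41), was higher in A159V in the marker-clean set (1.04). Each of the matrix genes was held by at most 18 NK barcodes of a library. In A159V the top barcode of each gene held most of its UMIs. The shares were 82.5% for Col1a1, 79.7% for Col1a2, 81.2% for Col3a1, 83.1% for Sparc and 54.9% for Fstl1. These ratios thus rest largely on single barcodes, which the intervals do not cover.

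T cells of the A159V tumor held less Ifng RNA than those of the WT tumor. Ifng was at 175 CPM in WT IgG [163 to 188] and 63.9 CPM in A159V IgG [53.7 to 75.5], a log2 ratio of −1.45 [−1.72 to −1.19], or 2.73-fold lower. After thinning to 1000 UMIs it was found in 9.20% of WT T cells [7.34 to 11.3] and 3.54% of A159V T cells [2.15 to 5.48], whereas 0 of 746 and 0 of 1227 tumor barcodes, thinned likewise, held it, which allows a share of up to 0.402% and 0.244%. In barcodes with Cd8 and no Cd4 it was at 297 and 120 CPM (−1.31), and in those with Cd4 and no Cd8 at 68.5 and 8.41 CPM, from 44 and only 2 UMIs (−3.03 [−6.12 to −1.09]). In the marker-clean set the ratio was −0.98. Between the aPD1 libraries Ifng was at 134 CPM in WT and 168 CPM in A159V (0.33).

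Other effector genes of T cells differed by less. Tnf was at 115 and 70.9 CPM (−0.70 [−0.97 to −0.43]), and Prf1 at 143 and 85.7 CPM (−0.74 [−0.98 to −0.50]). Gzmb was at 1206 and 1057 CPM (−0.19 [−0.26 to −0.12]) and Ccl5 at 1242 and 1054 CPM (−0.24). Ccl3, an inflammatory chemokine, was past the fold at 248 and 118 CPM (−1.07 [−1.27 to −0.87]), unlike Ccl4, at 900 and 794 CPM (−0.18). Prf1, Gzmb and Ccl3 were higher in A159V between the aPD1 libraries (0.93, 0.73 and 0.34). Of 8 effector cytokine and chemokine genes, 7 were below 0 and 2 were past the fold (Ifng and Ccl3), with a median of −0.21 against −0.02 for all compared genes. Gzmf, from the cluster that stood out in NK cells, was at 201 and 341 CPM (0.76 [0.62 to 0.91]) in T cells.

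Inhibitory and costimulatory receptors were mostly lower in A159V T cells as well. Lag3, an inhibitory receptor that binds MHC class II, was at 79.1 and 38.9 CPM (−1.02 [−1.38 to −0.67]), found in 199 of 851 WT and 61 of 548 A159V barcodes. Pdcd1, the gene for PD1, was at 106 and 70.4 CPM (−0.58), Havcr2, the gene for TIM-3, at 128 and 87.6 CPM (−0.55), and Ctla4 at 503 and 348 CPM (−0.53). Pdcd1 turned direction after thinning to 1000 UMIs (0.16) and was higher in A159V in Cd4 barcodes, at 71.6 and 126 CPM (0.82 [0.10 to 1.51]), and Ctla4 was at 0.14 between the aPD1 libraries. Of the 8 inhibitory receptor and exhaustion genes, 6 were below 0 and 1 was past the fold, with a median of −0.54 that was −0.12 after thinning to 1000 UMIs. Icos, a costimulator of CD4 T cells, was at 381 and 203 CPM (−0.91 [−1.06 to −0.76]). The regulatory T cell list had all 10 genes below 0, none of the 10 past the fold and a median of −0.47, with Tnfrsf4 (OX40) at 310 and 196 CPM (−0.66). Foxp3, which defines these cells, was under the minimum, with 196 and 56 UMIs (−0.81 [−1.27 to −0.38]). These values stand beside the smaller share of Cd4 barcodes.

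Transcription factors and receptors of effector cells followed. Tbx21, which drives Ifng transcription, was at 176 and 96.4 CPM (−0.87 [−1.10 to −0.64]), while Tcf7, a factor of memory and stem-like T cells, was at 104 and 115 CPM (0.13 [−0.10 to 0.36]). Klrc1, the gene for NKG2A, was at 214 and 102 CPM (−1.06 [−1.28 to −0.85]). Kdm2b, a histone demethylase that recruits Polycomb to CpG islands (chr5:122870665-122989823), was at 269 and 108 CPM (−1.31 [−1.52 to −1.10]), was spread over 437 WT and 153 A159V barcodes, and had a ratio of −1.05 between the aPD1 libraries. In Cd8 barcodes Kdm2b was at 286 and 85.0 CPM (−1.75), and in Cd4 barcodes at 327 and 244 CPM (−0.42). Hes1, a Notch target, was at 59.8 and 28.3 CPM (−1.08), but at −0.44 without the deepest 5% of barcodes. Its direction differed between Cd8 barcodes, at 63.9 and 21.3 CPM, and the 142 WT and 62 A159V Cd4 barcodes, at 4.67 and 58.9 CPM. A single barcode held 23.3% of its WT UMIs and 18.0% of its A159V UMIs. Nrgn, a calmodulin-binding protein, was at 78.1 and 31.0 CPM (−1.33).

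Proliferation and hypoxia genes leaned high in A159V T cells. All 15 cell cycle genes were above 0, with none of the 15 past the fold and a median of 0.52. Mki67, the proliferation antigen, was at 106 and 151 CPM (0.51 [0.30 to 0.72]) and Top2a at 221 and 318 CPM (0.52 [0.38 to 0.67]). Of 11 hypoxia response genes, 10 were above 0 and 1 was past the fold (Hmox1), with a median of 0.36. Hilpda, a lipid droplet protein induced by hypoxia, was at 131 and 260 CPM (0.99 [0.82 to 1.16]), and Bnip3, a mitophagy receptor, at 51.9 and 100 CPM (0.95), though the ratio of Bnip3 was −0.46 between the aPD1 libraries. Ero1l, an oxidase of the endoplasmic reticulum, was at 105 and 215 CPM (1.04 [0.85 to 1.23]), and Hk2, which starts glycolysis, at 57.4 and 107 CPM (0.90). Hilpda, Ero1l and Hk2 were also higher in A159V tumor barcodes, at 199 against 85.4 CPM, 254 against 195 CPM and 211 against 153 CPM. Glycolysis genes had a median of 0.23 in T cells, which was 0.01 after thinning to 1000 UMIs.

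Several of the highest T cell ratios belonged to genes known from other cells. Col1a2 was at 10.5 CPM in WT and 169 CPM in A159V (4.01 [3.56 to 4.49]), from 28 and 16 barcodes, and Col1a1, Col3a1 and Fstl1 were also among the 7 highest. In the marker-clean set the ratios of Col1a2, Col1a1 and Col3a1 were −0.92, 0.17 and 0.01. S100a9, at 5.58 and 73.2 CPM (3.71), was held by 9 and 11 barcodes and was lower in A159V in the marker-clean set (−0.59). Slpi was at 27.9 and 174 CPM (2.64 [2.34 to 2.95]), with a ratio of 2.78 in the marker-clean set, and Hmox1, the enzyme that breaks down heme, at 34.9 and 177 CPM (2.34 [2.07 to 2.63]), with 0.75. With the lineage gates on thinned barcodes Slpi was at 0.79 and Hmox1 at 1.28, and with the Ptprc gate thinned too at 0.76 and 1.39. A single barcode held 25.0% of the Slpi UMIs and 31.2% of the Hmox1 UMIs of A159V T cells. Both were higher in A159V tumor barcodes too, at 579 against 172 CPM for Slpi and 460 against 229 CPM for Hmox1. The list of matrix and protease genes had a median of 1.11 in T cells and 1.05 in the marker-clean set, led by Timp1, a metalloprotease inhibitor (17.4 and 65.3 CPM, log2 ratio 1.91).

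**Figure D4:**
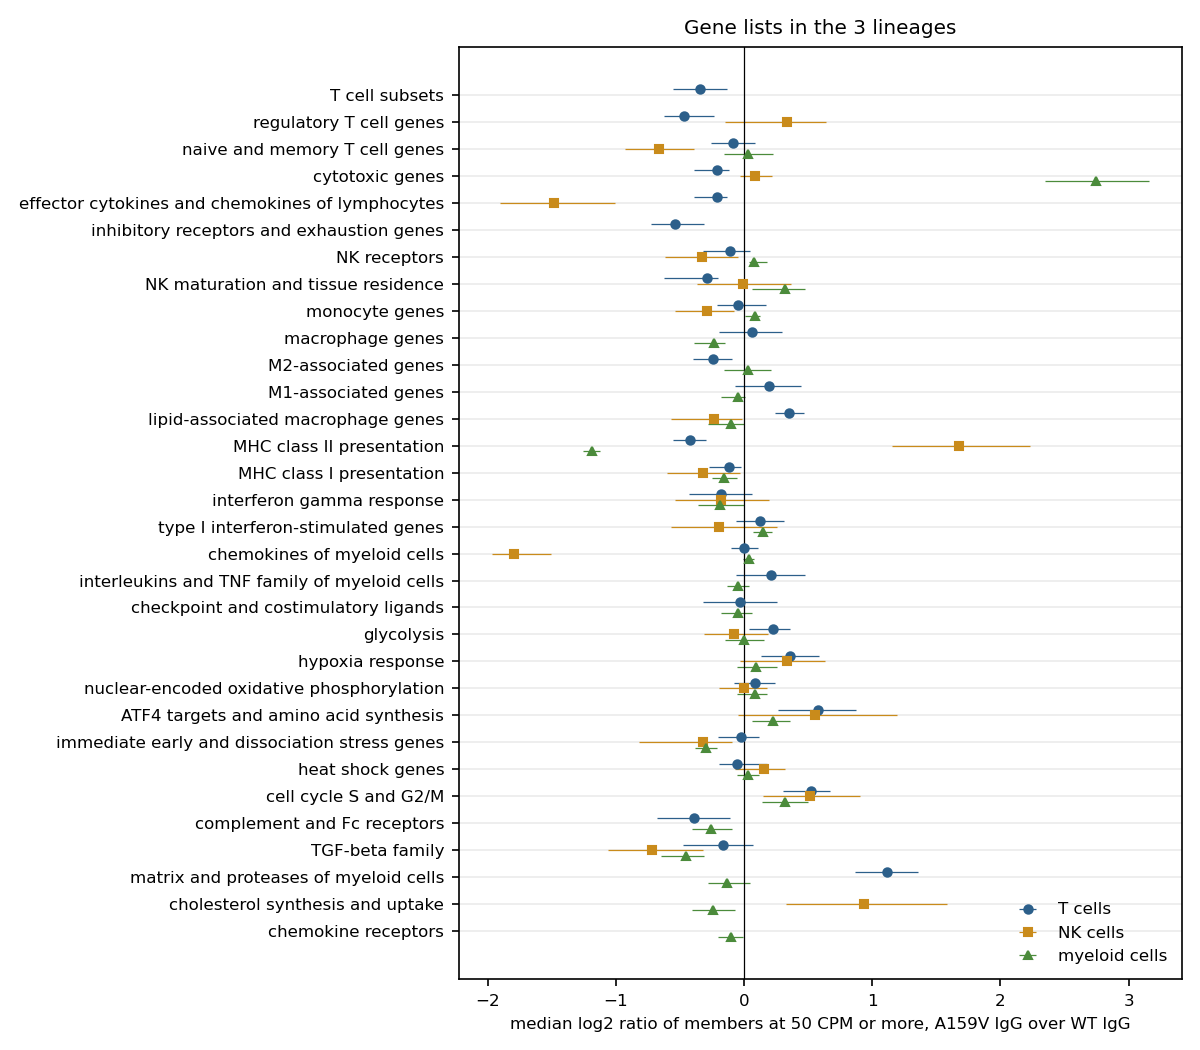
Median log2 ratio of the 2 IgG libraries, A159V over WT (x axis), for each gene list (y axis) with at least 5 members at 50 CPM or more, in T cells (circles), NK cells (squares) and myeloid cells (triangles), with bars from the median of the members' lower to the median of their upper counting bounds. MHC class II genes lie at −1.19 in myeloid cells, and cell cycle genes lie above 0 in each lineage, at 0.52, 0.51 and 0.32, although the myeloid median was −0.072 in the marker-clean set and −0.29 with lineage gates on thinned barcodes.

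The direction of the leading genes was compared across settings that changed which barcodes were summed, their depth or the scaling. In myeloid cells H2-Aa ranged from −1.55 to −0.76 and Cxcl9 from −2.99 to −2.24 over 10 alternatives. In NK cells Itga2 and Ccl5 were lower and Gzmd to Gzmg higher in each of them, and in T cells Ifng, Kdm2b and Icos were lower in each. In NK cells Col1a2 and the class II list changed direction with the lineage gates on thinned barcodes (−0.31 and −0.032), and in T and myeloid cells Col1a2 did so in the marker-clean set, whose filter uses this gene. Of the genes examined in detail whose counting interval lay off 0, 12 of 42 in T cells, 6 of 45 in NK cells and 14 of 47 in myeloid cells had the opposite sign between the aPD1 libraries, with an interval off 0 there too.

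**Figure D5:**
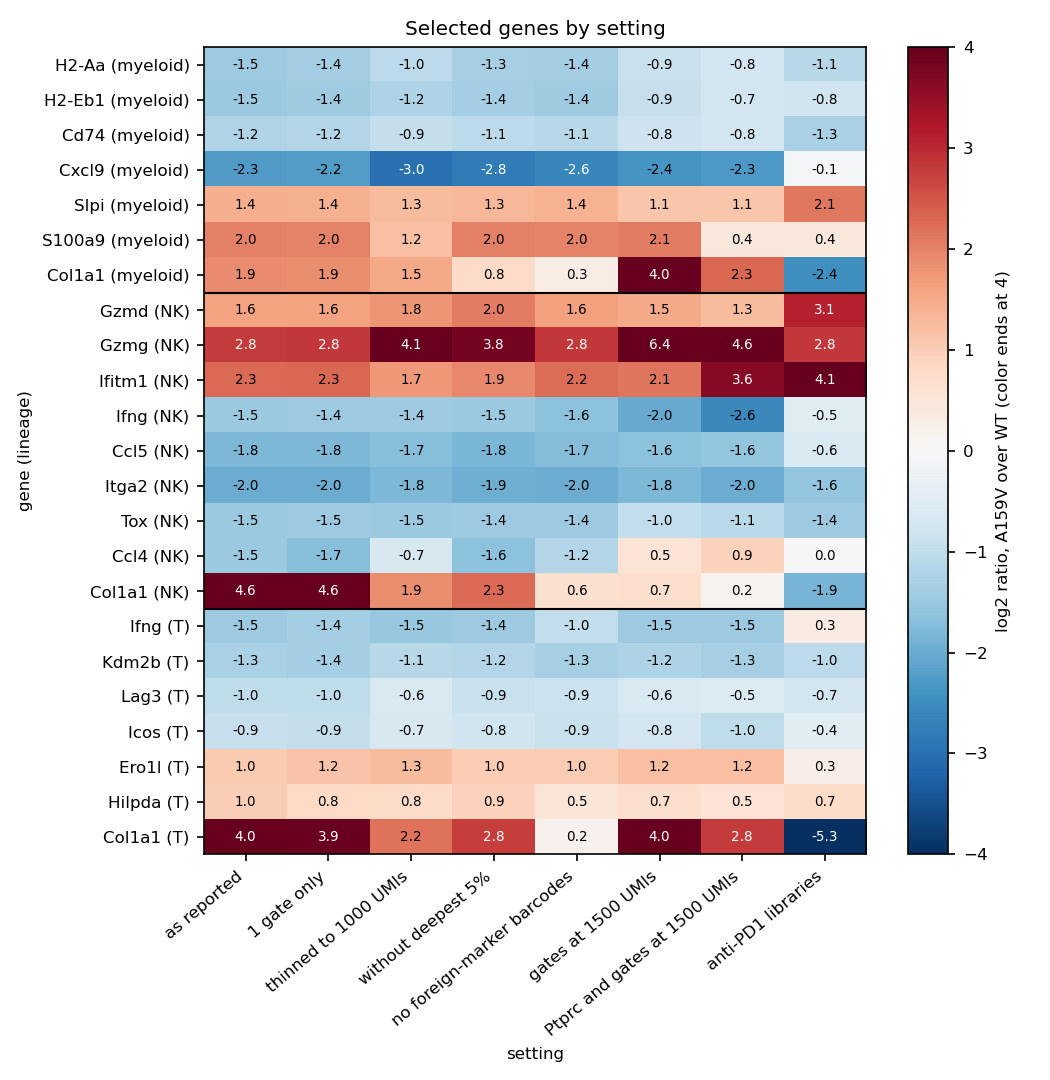
Log2 ratio of A159V over WT (color and printed value; color ends at 4) for selected genes and their lineage (y axis) as reported, under 6 alternative settings and between the aPD1 libraries (x axis). H2-Aa, Cxcl9, Itga2, Kdm2b and Icos are blue in all IgG columns, while Col1a1 lies between 0.17 and 0.63 in the column without foreign-marker barcodes and is dark blue between the aPD1 libraries in T cells.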

How the data were processed

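Cells of MC38 tumors (4 libraries, 1 for each genotype and treatment) were sequenced with 10x Genomics 3′ chemistry. The authors deposited whole-number UMI counts per gene and barcode, not normalized, for barcodes called as cells. The matrix headers name Cell Ranger 7.2.0, whereas the submitters' processing notes list 5.0.1 with mm10. The counts precede the study's own removal of background RNA and doublets. Neither was repeated here: no doublet caller was run, and barcodes passing more than 1 gate, the deepest 5% and those with markers of other cell types were left out as alternatives.

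UMIs were summed per lineage and library and scaled to 1000000. Ratios were given exact conditional binomial intervals, levels exact Poisson and shares Clopper-Pearson intervals (folds of shares, Katz), at 95%. A count of 0 was set to a floor of 3 counts per library. Genes were compared at 50 CPM or more in 1 IgG library. With 1 library per group no test was run. Values of a few withheld genes are not reported here. Code was tested on simulated data. Of 32285 genes, 32235 matched the GRCm38 annotation, 4 list genes were absent from the count tables, and promoters came from RefSeq (GRCm38.p6). Python 3.11.15, NumPy 2.4.6, SciPy 1.17.1, pandas 2.3.3 and Biopython 1.88 were used.

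Per lineage, the 7 highest and 7 lowest ratios past 2-fold were named where they kept their direction past 2-fold without multi-gate barcodes and after thinning to 1000 UMIs. Mitochondrial, ribosomal, hemoglobin, immunoglobulin, T cell receptor, sex-linked, gate and unnamed genes were left out, as were genes over 5 times higher in another lineage or in tumor barcodes (Hmga2 at least 2 UMIs, no Ptprc). In T cells 4 low genes passed. Members of the 34 gene lists served as further examples, and Ero1l, Ifitm1, Ifitm2, Tnfsf11 and myeloid Slpi were chosen after their values were seen. The immune gates, lists and markers were chosen with earlier results of these data known, and leaving out foreign-marker barcodes, gating on thinned barcodes for the profiles, and the Ptprc and mitochondrial settings for single genes were chosen after seeing the data.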

Additional observations from a re-analysis of the deposited data

Results flagged for a closer look

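Lineage shares with opposite orders in the IgG and aPD1 libraries, and genes of the text that were past the fold in one direction between the former and in the other between the latter, were set apart. Each side of either difference is 1 library, and the difference between the 2 treatments was not tested. NK cells made up 4.75% of the immune barcodes in A159V aPD1 and 9.15% in WT aPD1, the opposite order to the IgG libraries, and myeloid cells 36.6% and 24.5%, opposite as well. In T cells the log2 ratio of A159V over WT between the aPD1 libraries was −5.11 for Col1a2, −5.34 for Col1a1, −4.85 for Fstl1, −4.89 for Col3a1 and −2.87 for S100a9, all higher in A159V between the IgG libraries (4.01, 4.01, 3.45, 2.46 and 3.71). Nrgn was at 1.75 there, against −1.33. In NK cells Sparc was at −2.42, Col1a2 at −2.18, Col1a1 at −1.87, Fstl1 at −2.98 and Col3a1 at −2.48, against 4.80, 4.74, 4.61, 4.54 and 3.91. In myeloid cells Postn was at −2.85, Col1a1 at −2.44, Col1a2 at −2.65 and Retnla at −5.72, against 2.52, 1.88, 1.83 and 1.87. The macrophage genes Pf4 and Mmp13 were at −1.17 and −1.17, against 1.06 and 1.01, and Cntn3 at 4.24, against −1.54.

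The immune barcodes that passed none of the 3 gates, which no comparison used, held some genes of T cells, NK cells and neutrophils at higher levels in A159V IgG than in WT IgG. The lymphocyte kinase Lck was at 50.9 CPM in A159V and 25.2 in WT, Thy1 at 84.3 and 22.8, the NK receptor Klre1 at 95.1 and 24.3, and Il2rb, a chain of the interleukin-2 receptor, at 251 and 67.8. The calprotectin genes S100a8 and S100a9 were at 167 against 65.9 CPM and 345 against 93.5 CPM. G0s2 was at 107 and 32.3 CPM, and Prl2c2, a prolactin family gene and a marker of the tumor line, at 68.0 and 15.5 CPM. Summed T cell markers were at 341 and 197 CPM and NK markers at 1228 and 590 CPM. The B or plasma cell markers went the other way, at 117 CPM in A159V and 206 CPM in WT. These ungated barcodes were shallower in A159V, with medians of 1866 against 2766 UMIs, and the part of depth was not tested.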

How the results depend on the processing

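No paired analysis was possible because each group held 1 library and no result came from a test, and no replicate could be left out. The number of genes past the fold followed the minimum level and the fold. It was 68 in T cells, 117 in NK cells and 48 in myeloid cells as reported, 229, 364 and 122 at a 20 CPM minimum, 4113, 3743 and 5016 with no minimum, and 325, 512 and 166 at 1.5-fold. Thinning to 1000 UMIs gave 613 in NK cells. With the gates on barcodes thinned to 1500 UMIs there were 282 in NK and 25 in myeloid cells, and with the Ptprc gate thinned as well, 506 and 27. Leaving out foreign-marker barcodes gave 36 in T cells (25 higher, 11 lower) and 23 in myeloid cells (9 higher, 14 lower), and leaving out the deepest 5% gave 24 in myeloid cells (12 higher, 12 lower). In NK cells median of ratios scaling gave 49 higher and 53 lower, against 38 and 79. The cause of these shifts was not tested.

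Lists with a median past 1.5-fold numbered 1 of 30 in T cells, 6 of 22 in NK cells and 2 of 28 in myeloid cells. In T cells they were 2 after thinning, 2 with median of ratios scaling, 2 without foreign-marker barcodes, 2 with thinned gates and 4 with the Ptprc gate thinned too. In NK cells they were 1 and 2 under the last pair of settings, and in myeloid cells 1 without the deepest 5%. The fold of the myeloid share was 0.931 with more than 1000 genes and 1.04 with thinned gates.

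Of the 42 T, 45 NK and 47 myeloid genes examined in detail with an interval off 0, 3, 3 and 2 turned direction without foreign-marker barcodes (a filter that itself uses some of them), 1, 8 and 1 with the lineage gates on thinned barcodes and 2, 12 and 2 with the Ptprc gate thinned too. Without foreign-marker barcodes, T cell Col1a2 was at −0.92 and S100a9 at −0.59, NK Col1a2 at −0.37, H2-Eb1 at −0.79, Cxcl2 at 1.04 and the class II list at −0.20, and myeloid Postn at −2.81 (−2.84 without the deepest 5%) and Col1a2 at −0.058. With thinned gates NK Sparc was at −0.31, Col1a2 at −0.31, Col3a1 at −0.63, H2-Eb1 at −1.90, Ccl3 at 0.84, Ccl4 at 0.54, the class II list at −0.032 and the chemokine list at 0.54, and myeloid Hist1h1b at −0.76. With the Ptprc gate thinned too, NK Col1a2 was at −0.26, Col3a1 at −0.26, H2-Eb1 at −0.85, Ccl3 at 1.44, Ccl4 at 0.92, the chemokine list at 0.32, Cd226 at 0.25, Tnfsf4 at −0.11, Fdps at −0.53 and Ube2c at −0.084, Itga1 at −0.12, T cell Eif4ebp1 at −0.068 and myeloid Hist1h1b at −0.037. NK Eif4ebp1 was at −0.35 without the deepest 5%, and T cell Pdcd1 at 0.16 after thinning to 1000 UMIs.

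Depth limits NK cells most, with 890226 UMIs in WT IgG. The immune barcodes of A159V IgG were also shallower.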

Other observations

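Some genes differed in the same direction in T, NK and myeloid cells. Of the 2755 genes at 50 CPM or more in all 3 lineages, 14 were at least 1.5-fold higher and 7 at least 1.5-fold lower in A159V IgG in each of them. Besides collagens and other matrix genes, the higher ones held Eif4ebp1, which encodes the translation inhibitor 4E-BP1 (log2 ratios, 1.99 in T, 0.95 in NK and 0.62 in myeloid cells, but 0.39, −0.35 and 0.41 without the deepest 5% of barcodes), Hilpda (0.99, 1.13 and 0.93), the linker histone genes Hist1h1b (1.03, 1.42 and 1.51) and Hist1h1e (0.88, 0.78 and 0.65), and Ube2c (0.61, 2.04 and 0.73). The nucleotide pyrophosphatase gene Dctpp1 (0.96, 0.81 and 0.67) and the ribosome biogenesis gene Mak16 (0.80, 0.74 and 0.62) were among them too. Eif4ebp1, Hilpda, Hist1h1b and Dctpp1 were higher in A159V tumor barcodes as well (0.57, 1.22, 0.80 and 0.61).

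The lower ones held regulators of TGF-β signaling, Smad7 (−0.72, −0.74 and −0.69) and Ski (−0.59, −0.78 and −0.59), together with Mat2a, which makes the methyl donor S-adenosylmethionine (−0.60, −0.68 and −0.64). Without foreign-marker barcodes 2 of the 14 higher and 3 of the 7 lower genes stayed past 1.5-fold in each lineage. The 2 higher ones were the matrix gene Fstl1 (2.14, 0.80 and 0.92) and Gzmf (0.76, 1.88 and 3.09), a granzyme that the myeloid filter uses. Mat2a was among the 3 lower ones (−0.91, −0.68 and −0.69), while Smad7 was at −0.57, −0.70 and −0.63. In T cells Hilpda was at 0.53 and Ski at −0.54. In myeloid cells Dctpp1 was at 0.034, Ube2c at 0.050, Hist1h1b at 0.48, Eif4ebp1 at 0.45, Hist1h1e at 0.45 and Mak16 at 0.43. Smad7 was also lower in A159V tumor barcodes (−0.99), whereas Mat2a was at −0.16 there. The same libraries are behind all lineages and the tumor barcodes, so these values are not independent readings.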
